A study of Rattus norvegicus with 74 samples.

Results

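Zim1, a zinc finger gene of the Peg3 imprinted domain, and 9 other imprinted genes (Peg3, Peg10, Igf2, Igf2r, Dlk1, Cdkn1c, Plagl1, Mest and Grb10) were followed across rat skeletal muscle, muscle mitochondria and heart. The 10 genes were taken by symbol from the count tables, where each symbol names a single gene among 30560. Zim1 was chosen by its measured counts, which were higher in trained than in sedentary muscle, so that difference is given as a description, with no test. The other 9 were taken by name as imprinted genes, and their values are read from fits over all genes.

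The rats were male, wild-type Wistar Kyoto animals aged 9 weeks at sampling, housed in pairs and given chow and tap water containing 8% deuterium oxide. Rats of the trained groups (ExT) ran on a motorised treadmill on 5 days a week for 4 weeks from 5 weeks of age, reaching 60 min per session at 20 m/min, and rats of the sedentary groups (Sed) stood on a stationary treadmill for the same time. Sampling followed the final session by 24 h. SM is whole tissue from the red inner gastrocnemius (15 Sed and 15 ExT rats), MT is mitochondria captured with an antibody from a fresh portion of the same muscle of the same 30 rats and treated with RNase-A and proteinase-K, and LV is the left ventricle wall of 14 of these rats (7 Sed and 7 ExT). Library totals were 19477976 to 39401323 counts in SM, 530397 to 9988027 in MT and 54645657 to 75758777 in LV. Levels are in CPM, a gene's count relative to the library total after TMM scaling within a tissue, and a difference is a log2 fold change with its standard error (SE).

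Genomic imprinting marks a gene by parental origin, mainly through DNA methylation laid down in the germ line, so that mostly a single parental copy is transcribed. Many imprinted genes act on growth: paternally expressed ones such as Igf2 tend to promote it, and maternally expressed ones such as Igf2r, Grb10 and Cdkn1c tend to restrain it. Many of them are abundant in fetal tissue and decline after birth, and in adult muscle several are known from satellite and interstitial cells. The counts carry no information on alleles, so parental expression was not measured. In bulk tissue, fewer cells of a type and less RNA per cell cannot be told apart.

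The Zim1 and Peg3 promoters are shown because the genes are close neighbours, and Zim1 was higher in trained muscle where Peg3 was not called. In the RefSeq order on rat chromosome 1 only Apeg3, an antisense gene, lies between them, and Apeg3 had 0 or 1 count in each SM library. The sequences are the 250 bases before each start (RefSeq, build GRCr8, plus strand), chr1:76164958-76165207 for Zim1 and chr1:76130744-76130993 for Peg3, and capitals mark CG dinucleotides, the site of DNA methylation. The deposited counts are on another build, and these windows serve only to show sequence.
Zim1: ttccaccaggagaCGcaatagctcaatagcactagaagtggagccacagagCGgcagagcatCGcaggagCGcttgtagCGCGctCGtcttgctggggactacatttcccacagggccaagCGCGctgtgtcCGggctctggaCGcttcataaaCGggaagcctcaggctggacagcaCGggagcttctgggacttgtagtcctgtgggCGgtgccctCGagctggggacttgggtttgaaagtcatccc
Peg3: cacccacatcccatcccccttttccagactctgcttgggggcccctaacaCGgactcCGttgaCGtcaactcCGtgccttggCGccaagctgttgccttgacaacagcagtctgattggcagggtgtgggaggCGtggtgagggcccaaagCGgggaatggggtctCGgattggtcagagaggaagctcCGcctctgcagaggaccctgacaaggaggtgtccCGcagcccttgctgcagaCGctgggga
The Zim1 window held 15 CG dinucleotides and the Peg3 window 11, against a median of 5 over 33469 such windows. A window with at least 15 was found in 25.8% of genes' starts, and one with at least 11 in 33.6%. Among the 9 members with a promoter sequence, Dlk1 held 41 and Grb10 held 38, numbers reached by 0.980% and 1.69% of windows. CG, which reads the same on both strands, was the only motif counted, and methylation was not measured.

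In whole muscle, Zim1 was higher in trained than in sedentary rats, by 1.36-fold between the group means. Sedentary libraries ranged from 11.7 CPM (rat 8) through a median of 17.1 to 21.4 (rat 16), and trained libraries from 15.4 (rat 28) through a median of 22.3 to 30.9 (rat 5). The groups overlapped: 10 of 15 trained libraries lay above the highest sedentary library, 14 of 15 lay above the sedentary median, and 4 of 15 sedentary libraries lay below the lowest trained library. The means were 16.8 ± 2.39 CPM (SD, n = 15) in Sed and 22.8 ± 4.07 (SD, n = 15) in ExT, and the log2 fold change was 0.45 (SE 0.0815). The counts behind these levels were 260 to 606 in Sed and 387 to 1081 in ExT. Leaving out each library in turn gave log2 fold changes from 0.41, without trained rat 5, to 0.48, without trained rat 28.

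**Figure D1:**
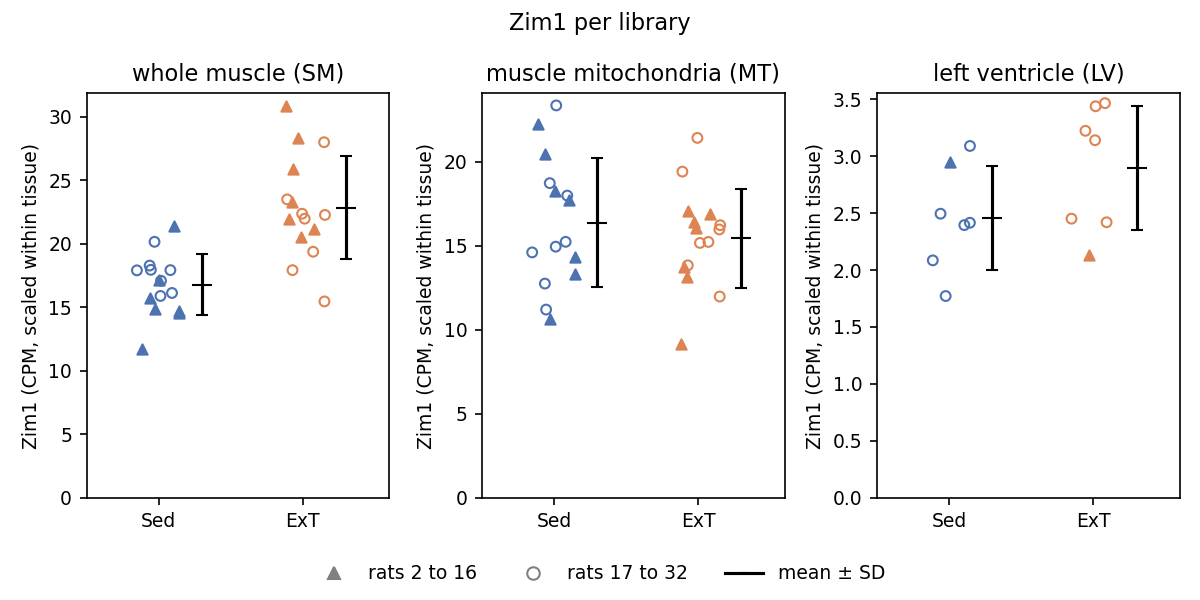
Zim1 in every library, in CPM scaled within each tissue (each panel has its own axis), for sedentary (Sed) and trained (ExT) rats. Triangles are rats numbered 2 to 16, circles are rats numbered 17 to 32, and bars are the mean ± SD. In SM 10 of 15 trained libraries lie above all sedentary ones, and in MT and LV the groups overlap.

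The Zim1 difference was estimated separately in the lower- and higher-numbered rats. Rat numbers come from the library names, and no label says what the numbers stand for. In rats 2 to 16 (7 Sed, 7 ExT) the means were 15.7 ± 2.99 and 24.6 ± 3.91 CPM, a ratio of 1.56 and a log2 fold change of 0.65 (SE 0.118). Here 5 of 7 trained libraries were above the highest sedentary one. In rats 17 to 32 (8 Sed, 8 ExT) the means were 17.7 ± 1.34 and 21.3 ± 3.80 CPM, a ratio of 1.21 and a log2 fold change of 0.27 (SE 0.0938), with 5 of 8 trained libraries above the highest sedentary one and 1 below the lowest. Zim1 was higher on average in the trained rats of both ranges, and the difference between the ranges was not tested. With the range as a covariate the log2 fold change was 0.45 (SE 0.0825).

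The same edgeR quasi-likelihood fit called 0 of the other 9 members at a Benjamini-Hochberg adjusted p below 0.05, where 0.206% of the 13570 genes tested were called (28 genes, 25 higher and 3 lower). None of the 9 reached an unadjusted p below 0.05 either, against 13.7% of all genes, and DESeq2 also called 0 of the 9 while calling 1.02% of genes. The differences ran from -0.24 for Peg10 to 0.22 for Dlk1, 4 above 0 and 5 below, with adjusted p from 0.397 to 0.997.

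Among the zinc finger genes, Peg3, whose protein also marks a class of interstitial cells in muscle, ranged from 38.1 through a median of 45.8 to 59.4 CPM in sedentary libraries. In trained libraries it ranged from 36.2 through 43.8 to 58.2 CPM. The groups overlapped almost fully, with 0 of 15 trained libraries above the highest sedentary one. The log2 fold change was -0.04 (SE 0.0660, 95% interval -0.17 to 0.09; edgeR adjusted p = 0.811). Plagl1, a zinc finger transcription factor with anti-proliferative activity, ranged from 5.81 to 13.7 CPM in Sed and from 5.90 to 12.8 in ExT, and differed by -0.12 on the log2 scale (SE 0.111, adjusted p = 0.658).

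Igf2, the fetal growth factor that signals through the IGF1 and insulin receptors, ranged from 36.5 through a median of 46.7 to 64.0 CPM in Sed and from 40.3 through 51.1 to 73.8 CPM in ExT. A single trained library, that of rat 2, lay above all sedentary ones, and 13 of 15 trained libraries lay above the sedentary median. The log2 fold change was 0.08 (SE 0.0751, adjusted p = 0.669). Igf2r, which carries IGF2 to the lysosome and so lowers its supply, was the steadiest member, with 127 to 174 CPM in Sed and 142 to 175 in ExT and a difference of 0.02 (SE 0.0460, adjusted p = 0.890). Grb10, an adaptor that dampens insulin and IGF1 receptor signalling, ranged from 135 to 186 CPM in Sed and from 122 to 175 in ExT, with 4 of 15 trained libraries below the lowest sedentary one. Its log2 fold change was -0.04 (SE 0.0551, adjusted p = 0.810).

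Dlk1, a membrane protein related to Notch ligands, was the most variable member in sedentary muscle, with a coefficient of variation of 44.1%. It ranged from 0.676 through 1.89 to 4.31 CPM (15 to 122 counts) in Sed and from 1.15 through 2.55 to 4.11 CPM in ExT. The trained range lay within the sedentary one, and the log2 fold change was 0.22 (SE 0.192, adjusted p = 0.646). Cdkn1c, a cyclin-dependent kinase inhibitor, ranged from 7.80 to 16.4 CPM in Sed and from 9.01 to 18.7 in ExT, a difference of 0.12 (SE 0.102, adjusted p = 0.621).

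Peg10, a gene derived from a retrotransposon, had the lowest counts of the set in SM, with a median of 49 a library in each arm. It ranged from 1.29 through 1.89 to 3.21 CPM in Sed and from 1.06 through 1.64 to 2.97 in ExT. Only 3 of 15 trained libraries lay above the sedentary median, and the log2 fold change of -0.24 (SE 0.127) had an unadjusted p of 0.0647 in edgeR (adjusted p = 0.397). Mest, which encodes a membrane protein with a hydrolase fold, had nearly equal means of 6.49 ± 1.06 and 6.49 ± 0.993 CPM (SD, n = 15 each), and its log2 fold change lay between -0.16 and 0.16 at 95%.

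**Figure D2:**
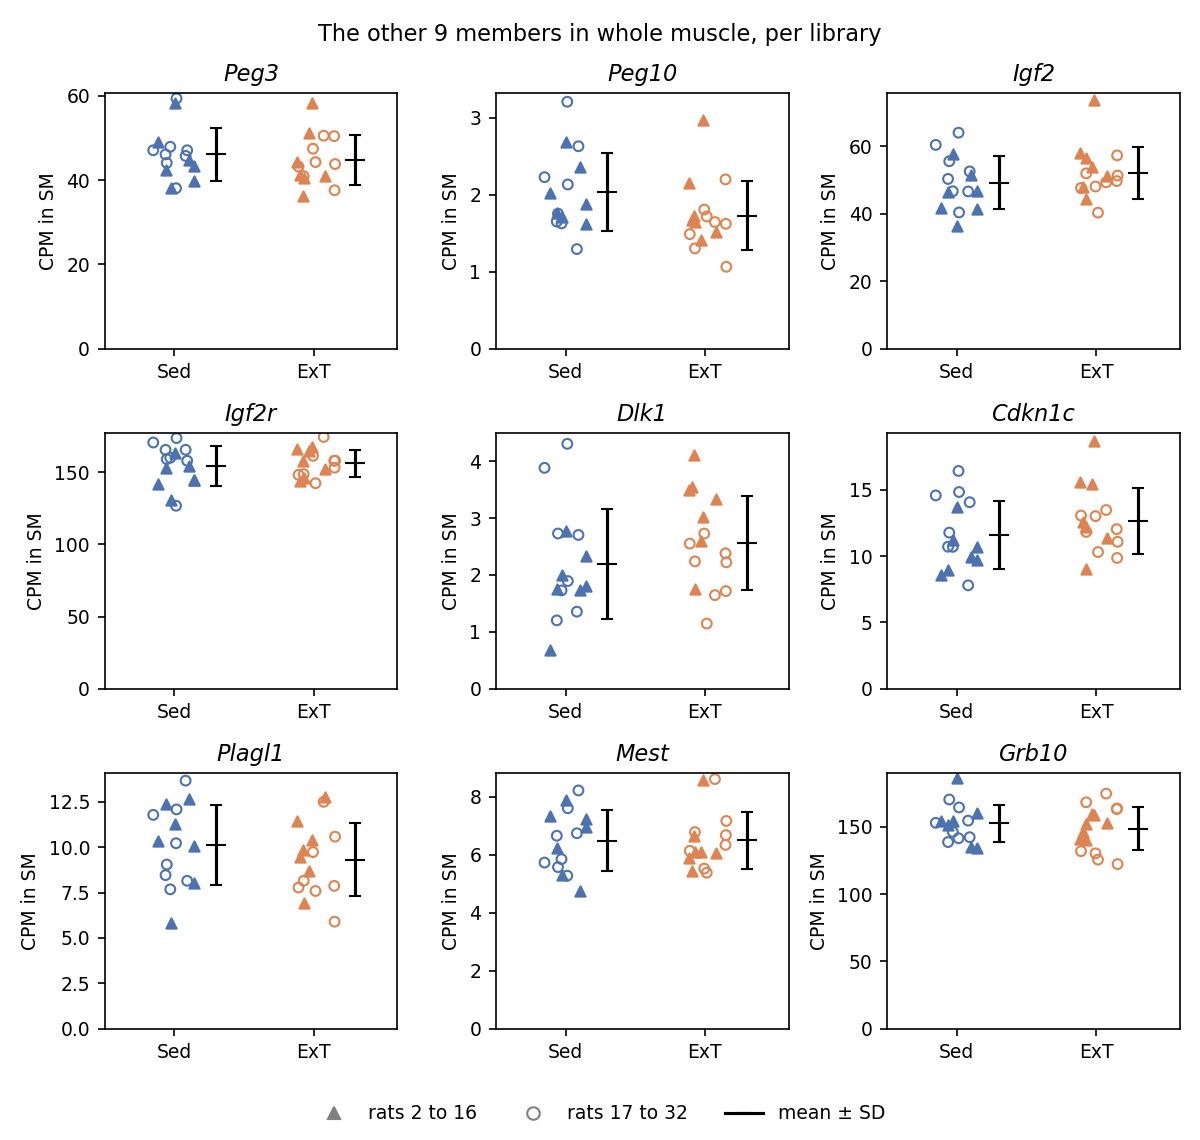
The other 9 members in whole muscle, in CPM per library, each panel with its own axis from 0. Triangles are rats 2 to 16, circles rats 17 to 32, bars the mean ± SD (n = 15 per group). The groups overlap in every panel, and no panel separates Sed from ExT.

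For 5 of these 9 members (Igf2, Igf2r, Dlk1, Cdkn1c and Mest) the training difference had opposite signs in the lower- and higher-numbered rats. Dlk1 differed most: 1.87 ± 0.647 in Sed and 3.13 ± 0.764 CPM in ExT among rats 2 to 16, where 5 of 7 trained libraries lay above every sedentary one. Among rats 17 to 32 the sedentary mean was 2.48 ± 1.15 CPM and the trained mean 2.08 ± 0.531, with 0 of 8 trained libraries above the highest sedentary one. The log2 fold changes were 0.74 (SE 0.221, edgeR adjusted p = 0.0652) and -0.25 (SE 0.243, adjusted p = 0.916). Igf2 stood at 0.26 (SE 0.110, adjusted p = 0.158) and -0.07 (SE 0.0864), and Cdkn1c at 0.39 (SE 0.140, adjusted p = 0.115) and -0.09 (SE 0.120). Neither range called any of the 9, where 2.95% of genes were called in rats 2 to 16 and 0.00732% in rats 17 to 32. Whether the training difference of these genes differs between the ranges was not tested.

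**Figure D3:**
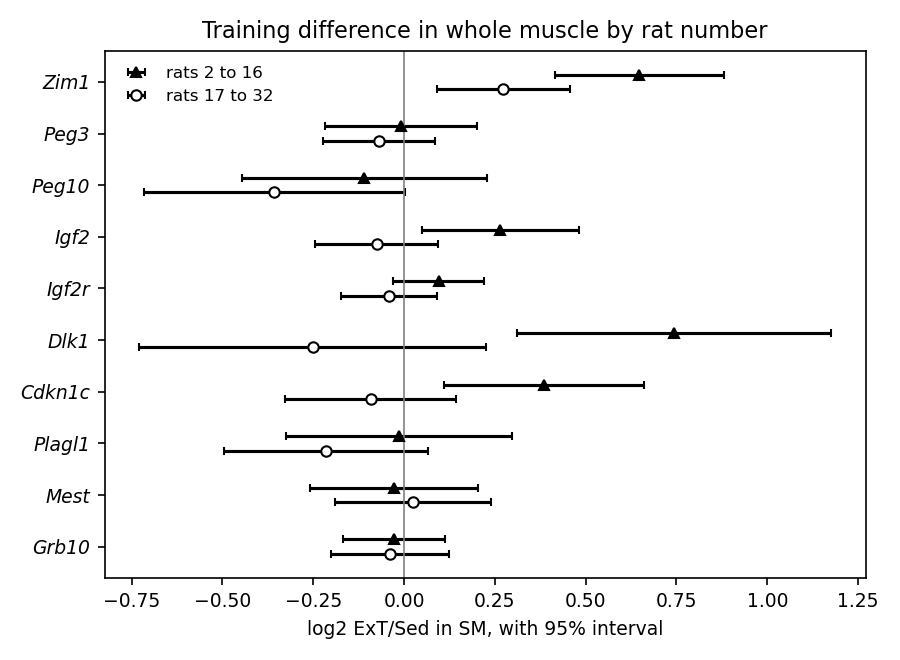
Training difference in whole muscle (log2 ExT/Sed, horizontal axis) for the 10 members, fitted separately in rats 2 to 16 (triangles) and rats 17 to 32 (open circles), with 95% intervals from the SE. Zim1 is 0.65 in the first and 0.27 in the second, and Dlk1 is 0.74 and -0.25. Zim1 was chosen by its rise in SM, so its intervals here are descriptive and carry no test.

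No member was called between the ranges themselves. Between rats 17 to 32 and rats 2 to 16, with arm in the model, edgeR called 0 of 10 members (adjusted p 0.491 to 0.945), where 12.9% of 13628 genes were called. None of the 10 had an unadjusted p below 0.05, against 27.7% of genes, and DESeq2 called 0 of them and 15.8% of genes. Zim1 differed by -0.02 (SE 0.0826). Among 36 other imprinted genes tested, Inpp5f was the 1 called higher in the higher-numbered rats and 4 were lower: Tssc4 by -0.37, Gatm by -0.26, Snrpn by -0.21 and Cobl by -0.20 on the log2 scale. Of 9 skeletal fibre markers, 4 were lower there (Mylpf, Ckm, Tnnt3 and Acta1).

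The wider set of imprinted genes showed no call with training in SM either. Of 63 listed beside the members, 49 had a single row in the tables and 36 passed the filter on low counts. None was called (4 had an unadjusted p below 0.05, the smallest adjusted p was 0.175), with a median log2 fold change of -0.01 that equals the median of all genes to 2 decimals. H19, the untranslated RNA next to Igf2 on the chromosome, stood at 2107 ± 535 CPM in Sed and 1732 ± 328 in ExT (n = 15 each), and the groups overlapped from 1403 to 2387 CPM. Of 13 genes of the IGF and growth axis tested, 0 were called and 1 had an unadjusted p below 0.05. Igf1 stood at 26.2 ± 6.75 and 25.6 ± 6.52 CPM, and Igf1r at 17.4 ± 1.55 and 18.2 ± 2.09.

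Markers of cells that the muscle samples hold were read beside these values, and 0 were called with training in any of the 9 lists. An unadjusted p below 0.05, which 13.7% of all genes had, was found for 8 of 10 endothelial and mural, 4 of 7 macrophage and leukocyte, 4 of 9 skeletal fibre and 3 of 8 Schwann cell and nerve markers tested. The remaining lists had 2 of 11 satellite cell and myoblast and 2 of 8 immature or regenerating fibre markers. They also had 1 of 9 fibroblast and interstitial, 1 of 4 adipocyte and 0 of 4 cardiomyocyte markers. The summed level of 12 satellite cell and myoblast markers was 80.9 to 118 CPM in Sed and 77.8 to 130 in ExT. That of 9 fibroblast and interstitial markers was 2498 to 9093 CPM in Sed and 2421 to 5367 in ExT, with a median difference of -0.14. The sum of 10 endothelial and mural markers was 531 to 986 in Sed and 699 to 1003 in ExT, with all 10 fitted differences above 0 (median 0.20, all genes -0.01). The sum of 8 Schwann cell and nerve markers was 19.9 to 145 CPM in Sed and 38.2 to 179 in ExT, with a median difference of 0.57, and that of 9 macrophage and leukocyte markers was 38.4 to 125 and 32.9 to 69.6, with a median difference of -0.33 over the 7 tested. Of the marker lists, none held a marker at 0 in every SM library of an arm except 1 cardiomyocyte marker in each arm and 1 adipocyte marker in Sed. The part of these markers in the Zim1 difference was not tested.

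Across the 30 SM libraries, with arm and rat-range means removed, Zim1 was compared with each other member. Of 9 relations computed, 0 passed Benjamini-Hochberg adjustment (adjusted p of Pearson's r 0.334 to 0.886, permutation test with 100000 resamples within arm and range). The relation farthest from 0 was with Mest, Pearson's r = -0.41 (permutation p = 0.0371, adjusted p = 0.334) and Spearman's rho = -0.35 (permutation p = 0.0663, adjusted p = 0.315). Without the pair of libraries farthest from the Zim1 median, rats 5 and 8, r was -0.37, and it was -0.51 within rats 2 to 16 and -0.29 within rats 17 to 32. With Peg3, its neighbour, r was 0.22 (permutation p = 0.263, adjusted p = 0.623) and rho was 0.33, with r at 0.05 within rats 2 to 16 and 0.48 within rats 17 to 32.

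The 5 genes whose centred log2 CPM was most like that of Zim1, among 11465 named genes averaging 1 CPM or more, were Efr3b (r = 0.72), Gk (0.71), Rnf128 (0.71), Abcd3 (0.69) and Nars2 (0.68). These are descriptions over 30 libraries, and the genes of a library share its depth and composition. Igf2r ranked 1149, Peg3 1932 and Mest 11187 in the same ordering.

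In MT, Zim1 ranged from 10.7 through a median of 15.2 to 23.3 CPM in Sed and from 9.16 to 21.4 in ExT. No trained library lay above the highest sedentary one. The log2 fold change was -0.07 (SE 0.125, 95% interval -0.32 to 0.18; edgeR adjusted p = 1.00). edgeR called 0 of 10 members and 0% of 19281 genes (4.69% had an unadjusted p below 0.05), and DESeq2 called 0. The difference between the MT and SM training effects of Zim1 was -0.54 (SE 0.149), which is given without a test because the SM effect chose the gene. Of the other 9 members, 0 were called for that difference between effects, where 0.0181% of 27684 genes were called by edgeR and 0.140% by DESeq2, and 3 of the 9 (Igf2, Dlk1 and Mest) had an unadjusted p below 0.05, against 8.49% of all genes.

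Mest was the 1 member with an unadjusted p below 0.05 for training in MT. It ranged from 7.15 through 10.2 to 16.1 CPM in Sed and from 7.88 to 21.0 in ExT, with 13 of 15 trained libraries above the sedentary median and 3 above the highest sedentary one. The log2 fold change was 0.41 (SE 0.142, p = 0.00425, edgeR adjusted p = 1.00), and the ratio of means was 1.33 in rats 2 to 16 and 1.35 in rats 17 to 32. It did not pass the adjustment over all genes. Dlk1, at 3.05 to 13.1 CPM in Sed and 1.63 to 10.3 in ExT, had a difference of -0.38 (SE 0.197, adjusted p = 1.00). Its difference was below 0 in both rat ranges, -0.28 and -0.50, and 0 trained libraries lay above the highest sedentary one. Igf2 ranged from 9.91 through a median of 17.5 to 32.7 CPM in Sed and from 8.45 through 14.8 to 24.6 in ExT, and 3 of 15 trained libraries lay above the sedentary median (-0.23, SE 0.131). For the difference between the MT and SM training effects these 3 genes stood at 0.40 for Mest (SE 0.156), -0.64 for Dlk1 (SE 0.305) and -0.34 for Igf2 (SE 0.151), with edgeR adjusted p from 0.460 to 0.569.

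The other members overlapped between the arms in MT. Peg3 had a median of 47.3 CPM and a highest value of 57.3 in Sed and ran from 38.2 to 51.1 in ExT. Igf2r ran from 71.2 to 100.3 CPM in Sed and from 72.8 to 103 in ExT, and Grb10 stood at 31.6 ± 4.70 and 30.8 ± 3.02 CPM (SD, n = 15 each). Plagl1 ranged from 13.4 to 26.5 CPM in Sed and from 16.1 to 30.2 in ExT. Cdkn1c and Peg10 had the widest spread of these for their level, from 2.54 to 17.5 and from 3.77 to 16.2 CPM in Sed, on as few as 5 counts in a sedentary library.

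These MT values rest on few counts. Zim1 had 14 to 49 counts a library in MT with a median of 28, Mest had 9 to 41, and Dlk1 had 3 to 30. In the same libraries 1338 genes of the odorant and vomeronasal receptor families, which act mainly in sensory neurons, held 1.79% of nuclear-encoded counts, with a median of 6.88 counts per gene, against 0.00123% in SM and 0.00209% in LV. Usp29, another gene of the Peg3 domain, stood at 28.3 ± 5.13 CPM in MT_Sed and 28.6 ± 7.25 in MT_ExT. In SM, scaled separately, it stood at 0.05 ± 0.07 in SM_Sed and 0.05 ± 0.06 in SM_ExT. With both tissues TMM-scaled together in sedentary rats, 8 of 12 satellite cell and myoblast markers were called higher in MT and 4 lower. Of all genes, 61.7% were called higher and 33.1% lower. The largest log2 differences among these markers were 3.95 for Mymx, 3.01 for Calcr, 2.97 for Mymk and -2.90 for Myod1. Pax7, the defining gene, stood at 16.5 ± 4.57 CPM in MT and 4.06 ± 0.889 in SM, each scaled within its tissue. Such levels cannot be compared directly between MT and SM. Mean Zim1 in sedentary rats was 16.4 CPM in MT and 16.8 in SM within tissue, but 10.5 and 27.3 scaled together. The part of this background in the members' MT levels was not tested.

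The difference between MT and whole muscle lay below the median difference of all genes tested for every member. In sedentary rats edgeR called 10 of 10 members, 2 higher and 8 lower in MT, where 94.8% of 22842 genes were called (61.7% higher and 33.1% lower). In trained rats it called 7 of 10, 1 higher and 6 lower, where 94.3% of 21312 were called (59.3% higher and 35.0% lower). Both arms reuse the SM libraries in which Zim1 was chosen, so its part in these counts is not independent of that choice. RNA input (10 ng for MT, 50 ng for SM) and library depth cannot be told apart from the fraction in these differences. TMM scaling left the median of all genes at 1.81 in Sed and 1.31 in ExT on the log2 scale, and scaling by library totals left it at 3.41 and 2.88, so the members are given relative to that median. Under both scalings the differences of all 10 members lay below the median difference of all genes in both arms. That median covers 22842 genes in Sed, where 13570 were tested in SM alone, so it includes genes with few counts in SM. The share of genes well expressed in SM that lie below it was not computed. Grb10 lay farthest below, by -5.43 in Sed and -4.90 in ExT, then Igf2 by -4.62 and -4.41 and Igf2r by -4.00 and -3.57. Zim1 lay at -3.20 and -3.19, Cdkn1c at -3.47 and -3.20, Peg3 at -3.13 and -2.61, Mest at -2.47 and -1.52, Plagl1 at -2.22 and -1.50, Dlk1 at -1.30 and -1.38 and Peg10 at -1.10 and -0.22. The sign against 0 depended on the scaling: 2 members in Sed and 1 in ExT were above 0 with TMM, and 6 and 5 with library totals. Zim1 in Sed moved from -1.39 (adjusted p = 3.06e-18) with TMM to 0.25 (edgeR adjusted p = 0.323) with library totals. The split of all called genes moved as well, from 65.1% higher to 86.1% in Sed and from 62.9% to 86.0% in ExT.

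In the left ventricle, Zim1 was measured at 123 to 241 counts a library. Sedentary libraries ran from 1.77 through 2.42 to 3.09 CPM and trained ones from 2.14 through 3.14 to 3.47 CPM. The groups overlapped, with 4 of 7 trained libraries above the highest sedentary one and 6 of 7 above the sedentary median. The means were 2.46 ± 0.458 and 2.90 ± 0.546 CPM (SD, n = 7 each), a ratio of 1.18, and the log2 fold change was 0.24 (SE 0.140, 95% interval -0.04 to 0.51; edgeR adjusted p = 0.817). In the 12 rats numbered 17 to 32 alone it was 0.35 (SE 0.139, edgeR p = 0.0226, adjusted p = 0.363). Among all 14502 genes tested in those rats, 1715 had an unadjusted p below 0.05. The 2 rats with lower numbers, 1 in each arm, give no value of their own. The SM and LV effects of Zim1, fitted together in the 14 rats that have both tissues, differed by 0.01 (SE 0.173), given without a test.

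edgeR called 0 of the 9 members that passed the filter in LV and 0% of 14488 genes with training (5.90% had an unadjusted p below 0.05, among them 0 members), and DESeq2 called 1 gene (0.00690%) and 0 members. The differences ran from -0.20 for Plagl1 and Mest to 0.31 for Peg10 (SE 0.350), with adjusted p from 0.817 to 0.961. Peg3 stood at 65.7 through 73.2 to 107 CPM in Sed and 68.4 through 80.8 to 99.4 in ExT, and Igf2r at 220 to 254 and 218 to 259, so the groups overlapped in both. Dlk1 did not pass the filter: 4 of 7 libraries in each arm had 0 counts, and the 7 libraries together held 5 counts in Sed and 9 in ExT. For the difference between the LV and SM training effects 0 of the other 9 members were called, where 0% of 15049 genes were called (4.57% had an unadjusted p below 0.05, and Peg10 was the 1 member among them, at 0.85, SE 0.362). DESeq2 called 1 gene (0.00664%) and 0 members.

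**Figure D4:**
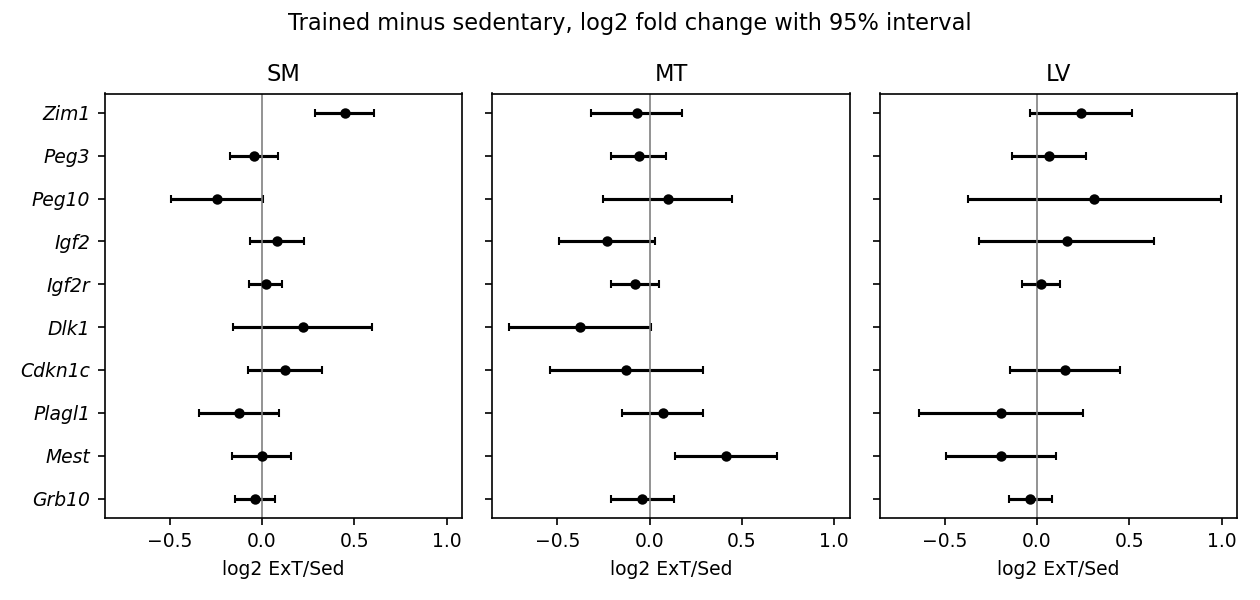
Training difference (log2 ExT/Sed) of the 10 members in SM, MT and LV with 95% intervals from the SE. Dlk1 has no point in LV because it did not pass the filter on low counts. Zim1 is 0.45 in SM, -0.07 in MT and 0.24 in LV. It was chosen by its rise in SM, so its SM interval is descriptive and carries no test. SM and MT hold 30 rats and LV holds 14 of them. In those 14 rats the SM and LV effects of Zim1 differed by 0.01 (SE 0.173), given without a test. The SM value of 0.45 is over all 30 rats, not these 14.

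Heart and muscle were compared within each arm. In sedentary rats edgeR called all 10 of 10 members, where 82.2% of 14243 genes were called (41.4% higher and 40.8% lower in LV), and in trained rats all 10 of 10, where 81.9% of 14327 were called (41.0% and 40.8%). In both arms 8 members were lower in LV, and Peg3 and Igf2r were higher. The members' median was -2.67 in Sed and -2.72 in ExT against 0.01 for all genes in each arm. Library kit and RNA input differ between LV and SM (100 ng with a TruSeq Ribo-Zero kit, 50 ng with a Zymo-Seq RiboFree kit) and cannot be told apart from tissue in these differences, and both arms reuse the SM libraries in which Zim1 was chosen, so its values here are not independent of that choice.

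Zim1, with libraries of both tissues scaled together, stood at 2.24 ± 0.434 CPM in LV and 17.4 ± 2.48 in SM of sedentary rats, with no overlap between 1.61 to 2.83 and 12.2 to 22.2 CPM. In trained rats it stood at 2.67 ± 0.510 and 23.9 ± 4.27 CPM. The log2 differences were -2.96 (SE 0.116, edgeR adjusted p = 1.52e-18) and -3.16, a level 7.77-fold lower in LV in sedentary rats. Its neighbour Peg3 went the other way: 71.4 ± 13.6 in LV against 47.9 ± 6.45 CPM in SM of sedentary rats, a difference of 0.57 (SE 0.0889, adjusted p = 1.49e-06), with overlapping groups, and 0.68 in trained rats, without overlap. Igf2r, at 217 ± 11.8 and 160 ± 14.4 CPM in sedentary rats, was higher in LV by 0.44 in both arms, without overlap. The share of all genes whose LV and SM libraries do not overlap was not computed.

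Unlike Igf2r, both Igf2 and Grb10 were lower in heart. Igf2 stood at 9.84 ± 3.11 CPM in LV and 51.1 ± 8.11 in SM of sedentary rats (log2 difference -2.38, SE 0.148), and Grb10 at 45.0 ± 3.75 and 158 ± 14.8 (-1.82, SE 0.0681), with adjusted p of 1.86e-13 and 6.20e-19 in edgeR. Cdkn1c (-3.24), Plagl1 (-3.63) and Peg10 (-3.89) were between 9.43-fold and 14.8-fold lower in LV in sedentary rats. For them, no library of one tissue reached the range of the other, and how many of all genes separate in this way was not computed. Peg10 in LV rests on 3 to 19 counts a library. Mest differed by -0.33 (SE 0.0992, adjusted p = 0.00364) in sedentary and -0.52 in trained rats with overlapping groups, and with library totals the sedentary difference was -0.13 (edgeR adjusted p = 0.287).

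Dlk1 was close to the limit of detection in LV. The 5 counts of the sedentary libraries amount to 0.0104 CPM (exact Poisson 95% interval 0.00337 to 0.0242) and the 9 counts of the trained ones to 0.0198 CPM (0.00907 to 0.0376), intervals that cover counting error only. In SM the lowest library had 0.676 CPM. edgeR called Dlk1 lower in LV in both arms, and the fitted fold change, which depends on the prior count at such low counts, is not used.

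**Figure D5:**
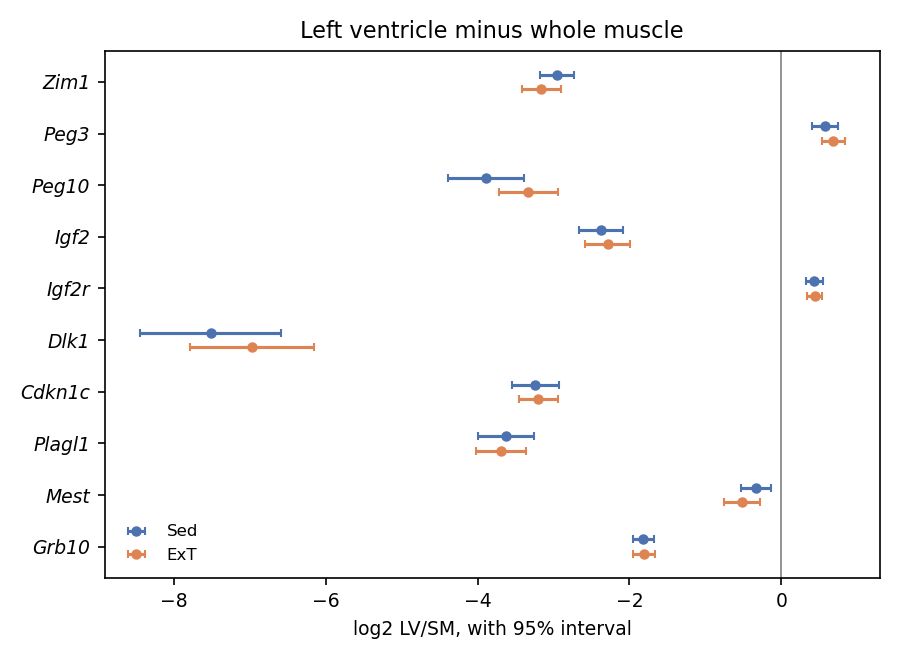
Difference between left ventricle and whole muscle (log2 LV/SM, horizontal axis) for each member in sedentary (blue) and trained (orange) rats, with 95% intervals from the SE. Peg3 and Igf2r lie above 0 and the other 8 members below; the Dlk1 points rest on 5 and 9 counts in LV.

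Among the other imprinted genes tested between LV and SM, 20 of 38 were called higher in LV and 14 lower in sedentary rats (19 and 14 of 38 in trained rats), with a median of 0.22 (0.17 in trained rats). Of all genes tested, 41.4% were called higher and 40.8% lower in sedentary rats, and 41.0% and 40.8% in trained rats. H19 was lower by 8.94 on the log2 scale in sedentary rats (SE 0.477, edgeR adjusted p = 3.21e-14), with 0.919 to 10.5 CPM in LV against 1403 to 3119 in SM, each scaled within its tissue. Slc38a4, an amino acid transporter, had 0.160 to 6.42 CPM in LV and 35.7 to 67.9 in SM, and Calcr, the calcitonin receptor found on satellite cells, had 0 to 0.0288 CPM in LV and 0.460 to 1.21 in SM. Of the IGF and growth axis, 2 of 15 genes were higher and 6 lower in sedentary rats and 4 of 14 higher and 8 lower in trained rats. Igfbp6 (-2.50), Irs2 (-2.11) and Irs1 (-2.03) were lower in LV, and Igf2bp3, an mRNA-binding protein known from fetal tissue, was higher (1.86 to 2.99 CPM in LV, 0 to 0.308 in SM).

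The defining markers of both tissues were read beside these values. All 9 skeletal fibre markers tested were lower and all 10 cardiomyocyte markers higher in LV, and 8 of 11 satellite cell and myoblast markers were lower in sedentary rats, 10 of 11 in trained rats. Pax7 had 0 counts in every LV library and 2.82 to 6.57 CPM in SM. Of 9 fibroblast and interstitial cell markers, 4 were higher and 2 lower in LV in each arm. Beside these marker counts, 41.4% of all genes were called higher and 40.8% lower in sedentary rats (41.0% and 40.8% in trained rats). Col1a1 was lower by 3.34 on the log2 scale in sedentary rats. Pdgfra had 73.8 to 141 CPM in LV and 20.2 to 38.2 in SM, each scaled within its tissue. The part of cell makeup in the members' differences was not tested.

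Levels in muscle and heart of the same rat were compared for the 9 members tested in LV. Over the 14 rats with both tissues, with arm means removed, 0 of 9 relations passed adjustment (adjusted p of Pearson's r from 0.0623). Grb10 had r = 0.64 (permutation p = 0.0138) and rho = 0.70 (permutation p = 0.00617), and Mest had r = 0.57 (p = 0.00958 by permutation) and rho = 0.59. Both had an adjusted p of 0.0623, and without the pair of rats farthest from the SM median r was 0.49 for Grb10 and 0.54 for Mest. Zim1 had r = 0.31 (permutation p = 0.311, adjusted p = 0.495) and rho = 0.40, and r = 0.55 (permutation p = 0.0809, adjusted p = 0.243) without its pair of farthest rats. Only 2 of these rats have numbers of 16 or lower, too few for a value within that range.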

How the data were processed

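Total RNA libraries of SM, MT and LV were compared between arms and between tissues. The authors deposited whole-number counts per gene for 30560 genes in 3 tables, and all columns belonged to listed samples. The submitters' processing notes name FastQC 0.74, cutadapt 4.6, STAR 2.7.11a, HTSeq and the build mRatBN7.2, with no role or order; the annotation version and strand setting are not given in the sources used here, so reads of overlapping and antisense genes (Apeg3 beside Peg3, for example) cannot be told apart. Groups and rat numbers were read from the library names.

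Counts were fitted with edgeR 4.0.16 in R 4.3.3 (TMM scaling, filterByExpr, robust quasi-likelihood F test), only on the groups compared, with Benjamini-Hochberg adjustment over all genes tested and a threshold of 0.05. SEs are the log2 fold change divided by the square root of F. The edgeR scripts were tested on simulated data. CPM came from the same scaling, and correlations used log2(CPM + 0.1). Alternatives were library totals, another size factor, no filter, DESeq2 1.42.0, each rat-number range alone or as a covariate, and each SM or LV library left out in turn. Samples of the same number come from the same rat, per the series' design text and titles. Deviations from group means had a median correlation over genes of 0.00671 between MT and SM of the same rat (-0.000575 for other rats) and of 0.0199 between LV and SM (-0.00887 for other rats). By library totals, 3 counts equal 0.0761 to 0.154 CPM in SM, 0.300 to 5.66 in MT and 0.0396 to 0.0549 in LV. These values are without TMM scaling, so they are not on the scale of the CPM given for the genes. In MT of trained rat 28, 3 counts of Dlk1 stood at 1.63 CPM after TMM scaling. Each library is a separate rat within its tissue.

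Text names all 10 members, from each other list up to 4 called genes with the largest log2 fold change, and the 5 genes most like Zim1 in SM; Igf1, Igf1r, Usp29, Pax7 and Inpp5f were chosen after their values were seen. The members and the lists were chosen with earlier results of these data known. Of the list genes, 19 had no single row in the tables. Promoters came from a RefSeq table (GRCr8), which held 9 of 10 members; all 10 matched a RefSeq gene by symbol for the gene order.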

Additional observations from a re-analysis of the deposited data

How the results depend on the processing

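Under the 139 alternatives run for the 13 main results, no count of members called left 1.5 times its value, and no correlation passed that had not. The Zim1 difference in SM stayed above 0, from 0.27 to 0.65. A count can hold while the members called change. For MT against SM in ExT, library totals no longer called Zim1, Peg3 and Cdkn1c, and called Dlk1, Plagl1 and Mest. Rats pair the tissues, and with the rat as a replicate block the fits called 10 of 10 members for LV against SM in each arm, 10 and 7 for MT against SM in Sed and ExT, and 0 for both differences between training effects, the calls made without it. Of 904 single-member values under alternatives, 846 kept their direction and side of the threshold. With the sign kept, 7 lost their call and 2 gained one. The other 49 changed sign, whether or not their call changed, 16 of them by leaving out 1 SM library (Mest with training, -0.0357 to 0.0263). Of the 49, 5 had an edgeR adjusted p below 0.05 with the opposite sign, all for MT against SM with library totals. In Sed, Plagl1 and Mest went from called lower to called higher. In ExT, Dlk1, Plagl1 and Mest went from not called to called higher.

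For training in SM, rats 17 to 32 alone gave -0.0746 for Igf2, -0.0406 for Igf2r, -0.25 for Dlk1, -0.0918 for Cdkn1c and 0.0239 for Mest, and Mest was 0.0094 with library totals and 0.0034 with no filter. For training in MT, Peg3 was 0.0277 with library totals, and within 1 range Peg3 was 0.10, Cdkn1c 0.0685 and Plagl1 -0.0595 (rats 2 to 16) and Peg10 -0.15 and Igf2r 0.0220 (rats 17 to 32). For MT against SM with library totals, Zim1 was 0.25, Peg3 0.27, Plagl1 1.16 and Mest 0.92 in Sed, and Peg3 0.33, Dlk1 1.53, Plagl1 1.38 and Mest 1.40 in ExT. In ExT, other size factors gave Dlk1 0.30, Plagl1 0.18 and Mest 0.16, and DESeq2 gave 0.31, 0.18 and 0.17. Near 0, differences between the MT and SM training effects were 0.0503 for Peg3 (library totals) and 0.00019 and 0.00025 for Grb10 (other size factors and library totals), the LV and SM effects of Grb10 differed by -0.0312 (library totals), and between rat ranges library totals gave 0.00015 for Zim1 and 0.0021 for Grb10. Apart from the scaling itself, the cause was not tested.

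The counts over all genes moved more. For training in SM, 28 genes were called, 136 by DESeq2, 45 with rat range as a covariate, 396 in rats 2 to 16, 1 in rats 17 to 32, and from 12 to 100 leaving out 1 library (100 without sedentary rat 23). DESeq2 called 32 genes against 5 in edgeR for the difference between the MT and SM effects, where the rat block called 3 and library totals 0, and 1 against 0 for training in LV and for the difference between the LV and SM effects. Depth limits MT most, where a member's library can hold 3 counts.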
